A study of Homo sapiens with 4 samples.

Results

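Crosslink sites in 5′ untranslated regions (5′UTRs) made up 5232 of the 270283 sites listed for PDCD4 and for the IgG control in MCF10A cells. A site was counted here, whatever its score, when its nucleotide lay in a 5′UTR exon of a GENCODE v44 protein-coding transcript on the same strand and in no coding sequence (CDS) or 3′UTR of any transcript. The PDCD4 list held 3710 such sites among 158922, and the IgG list held 1522 among 111361. MCF10A is an established, untransformed line of human breast epithelial cells, here of WT genotype and grown in DMEM/F12 with horse serum, epidermal growth factor, insulin, hydrocortisone and cholera toxin. Cells were irradiated with UVC and lysed, protein and attached RNA were pulled down with a PDCD4 antibody or with IgG, and the position at which reverse transcription stopped was mapped to 1 nt (iCLIP). Both immunoprecipitations had 2 samples, which reach the reader as 1 pooled list each, so no spread between samples can be given and no test between PDCD4 and IgG was possible. The intervals below are 95% intervals that cover counting error only, and they treat cDNAs and sites as independent counts. The score of a site is its number of cDNAs. Sites seen with IgG had been subtracted from the PDCD4 samples before peaks were called, so the lists were not made in the same way, and this step cannot be told apart from the antibody.

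The 5′UTR is the stretch of an mRNA that the small ribosomal subunit scans from the cap until it meets the start codon. Scanning needs RNA structure to be opened by the helicase eIF4A, which works within the cap-binding complex eIF4F together with eIF4G and eIF4E. PDCD4 is known as an inhibitor that binds eIF4A, and reporters with structured 5′UTRs have been the classical readout of that activity. Short open reading frames upstream of the main start codon, G-rich elements and the pyrimidine tract at the cap of ribosomal protein mRNAs are other well-known control elements of 5′UTRs.

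The sequences that follow are the 30 nt around the sites that the results turn on, read on the transcribed strand from the GRCh38 reference, with the site as the 16th base. In the first set, capitals mark the site and the start codon that directly follows it. These are sites of the PDCD4 list in the last nucleotide of the 5′UTR, chosen for their high scores among sites of that kind. A site in PLEC with 6 cDNAs is not printed, and ID1 is 1 of several with 5 cDNAs.
CASKIN2 (chr17:75513791-75513820, minus strand, 7 cDNAs): cagcccaggagccagTATGggtcgtgaaca
SLC16A3 (chr17:82235993-82236022, plus strand, 7 cDNAs): accaaccctcctggcCATGggaggggccgt
S100A2 (chr1:153563864-153563893, minus strand, 6 cDNAs): ctgcagccacagatcCATGatgtgcagttc
CD46 (chr1:207752197-207752226, plus strand, 6 cDNAs): gtcttccgcgccgcgCATGgagcctcccgg
KMT5B (chr11:68190063-68190092, minus strand, 6 cDNAs): caggctgtctgtgggTATGaagtggttggg
ID1 (chr20:31605372-31605401, plus strand, 5 cDNAs): ccagtcgccaagaatCATGaaagtcgccag
The IgG list held sites of the same kind, with at most 4 cDNAs, of which these are examples.
SFN (chr1:26863197-26863226, plus strand, 4 cDNAs): gtgtgtccccagagcCATGgagagagccag
THBS1 (chr15:39581842-39581871, plus strand, 4 cDNAs): caccaacagctccacCATGgggctggcctg
C3 (chr19:6720576-6720605, minus strand, 4 cDNAs): gcactgtcccagcacCATGggacccacctc
ENO1 (chr1:8874895-8874924, minus strand, 3 cDNAs): tctacagaagttcacCATGtctattctcaa
The last set shows sites with the highest scores of each list, with the site alone in capitals. The first 5 are from the PDCD4 list and the other 4 from the IgG list.
HSPA8 (chr11:123058982-123059011, minus strand, 10 cDNAs): ggaagtcttgactgaCtcgctatgatgatg
KRT17 (chr17:41624558-41624587, minus strand, 10 cDNAs): cccggcagccctacaCaacttggggcccct
HMGB1 (chr13:30465873-30465902, minus strand, 9 cDNAs): tctggctcccgctctCacagccattgcagt
RAP2B (chr3:153162568-153162597, plus strand, 9 cDNAs): ctctctcctgggtttTtcctgcgtagctga
NPM1 (chr5:171387870-171387899, plus strand, 9 cDNAs): cctgcgcggttgttcTctggagcagcgttc
ANKRD18A (chr9:38620393-38620422, minus strand, 9 cDNAs): gggggtggatcgcggGttgcgggggggatc
WDR74 (chr11:62841709-62841738, minus strand, 8 cDNAs): tctatccgaggacaaTatattaaatggatt
EIF4G2 (chr11:10808792-10808821, minus strand, 7 cDNAs): cccccttccctccccCttttttttgttttc
FTH1 (chr11:61967516-61967545, minus strand, 7 cDNAs): cgcccatagccagccCtccgtcacctcttc

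The 5′UTR took a small share of both lists, and a larger share of the PDCD4 list. It was 2.33% of PDCD4 sites (interval 2.26 to 2.41) and 1.37% of IgG sites (1.30 to 1.44), a log2 ratio of 0.77 (0.69 to 0.86) or 1.71-fold. CDS sites differed more between the lists, with 20.9% against 9.72% and a log2 ratio of 1.10 (1.07 to 1.14). The log2 ratio was 0.26 for 3′UTR sites and -0.41 for intronic sites. Set against the CDS of its own list, the 5′UTR was therefore lower with PDCD4, at 8.95 CDS sites for each 5′UTR site against 7.11 with IgG, and the log2 ratio of these proportions was -0.33 (-0.42 to -0.24). Against the 3′UTR it was higher with PDCD4 by 0.51 on the log2 scale (0.42 to 0.60). The difference in the share was not seen among the sites with a score above 5, the class that the study's methods keep. There the log2 ratio of the 5′UTR shares was -0.32 with an interval of -1.07 to 0.43, and that of the 5′UTR to CDS proportions was -1.61 (-2.41 to -0.81).

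**Figure D1:**
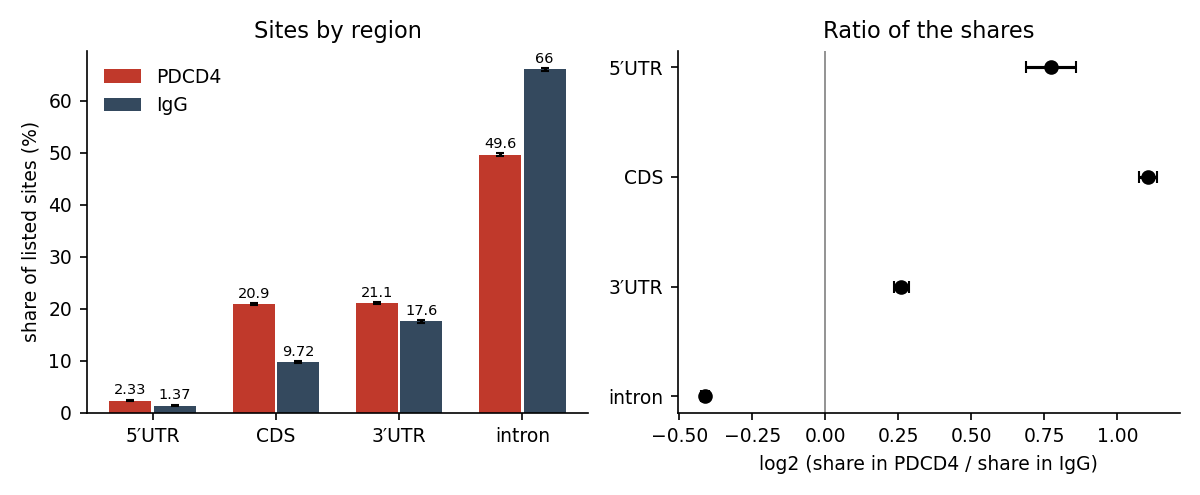
Share of all listed sites in the 5′UTR, CDS, 3′UTR and introns for PDCD4 and IgG (left, percent, bars with 95% Wilson intervals) and the log2 ratio of the shares with 95% counting intervals (right). The 5′UTR ratio of 0.77 lies between that of the CDS (1.10) and that of the 3′UTR (0.26), while introns lie below 0.

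The scores of 5′UTR sites were low and alike in both lists. The mean was 2.66 cDNAs with PDCD4 and 2.67 with IgG, and the difference was -0.01 (-0.07 to 0.04). The highest score was 10 with PDCD4, reached in HSPA8, a constitutive chaperone, and in KRT17, a keratin of basal epithelium. It was 9 with IgG, in ANKRD18A. The HSPA8 site lay outside the MANE Select (reference isoform) 5′UTR, at the base directly before the small RNA gene SNORD14D on the same strand. Reads of the small RNA and of HSPA8 mRNA cannot be told apart there. A score above 5 was held by 49 of the PDCD4 5′UTR sites, or 1.32%, and by 20 of the IgG sites, or 1.31%. In the CDS this class was 2.67% of the sites with PDCD4 and 1.10% with IgG. Most 5′UTR sites had 2 or 3 cDNAs, with 1594 and 1264 sites in the PDCD4 list and 729 and 520 in the IgG list. The 5′UTR took 2.04% of all PDCD4 sites with 2 cDNAs (1.94 to 2.14) and 3.13% of those with 5 cDNAs (2.63 to 3.72). With IgG these shares were 1.17% (1.09 to 1.26) and 1.86% (1.36 to 2.53). At 6 and 7 cDNAs the PDCD4 shares were 2.74% (1.95 to 3.84) and 1.66% (0.84 to 3.23), so no steady rise with the score was seen. The IgG shares there were 2.15% (1.23 to 3.72) and 4.51% (2.08 to 9.49), from few sites.

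Not every one of these sites lay in the 5′UTR of the main isoform. The MANE Select transcript, which is the agreed reference isoform of a gene, held the site in its own 5′UTR for 2572 PDCD4 sites (69.3%, 67.8 to 70.8) and 897 IgG sites (58.9%, 56.4 to 61.4). Another 24.0% of PDCD4 sites and 34.1% of IgG sites lay in an intron of the MANE transcript and were 5′UTR sites of an alternative isoform alone. For such sites, spliced alternative mRNA and unspliced pre-mRNA cannot be told apart. With MANE 5′UTRs alone the log2 ratio of the shares was 1.01 (0.90 to 1.12), and that of the 5′UTR to CDS proportions was -0.10 (-0.21 to 0.02), an interval that includes 0. The first exon held 82.2% of PDCD4 sites and 81.5% of IgG sites. A larger share of PDCD4 sites had a near neighbour in their own list. Another 5′UTR site of the same list lay within 20 nt for 28.8% of PDCD4 sites (27.4 to 30.3) and 15.6% of IgG sites (13.9 to 17.5). The lists held 3710 and 1522 sites in all, and no comparison at equal numbers of sites was made. The lists shared 17 5′UTR positions. Because sites seen with IgG had been subtracted from the PDCD4 samples, this overlap was lowered in advance and is no result about the sites.

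The site stood a median of 136 nt before the start codon with PDCD4 (quartiles 61 and 286) and 157.5 nt with IgG (quartiles 71 and 329), counted along the spliced transcript. Within 50 nt of the start codon lay 21.8% of PDCD4 sites and 18.3% of IgG sites, a difference of 3.50 percentage points (1.15 to 5.86). Of all 5′UTR positions of the same transcripts, 10.8% and 8.88% lay in that window, so sites stood there about as often relative to positions in both lists (2.01-fold and 2.06-fold). Those proportions weight long 5′UTRs by their length. Each site was therefore also set against the positions of its own 5′UTR, with the ends of exons included. An even spread would have put 21.7% of PDCD4 sites and 19.6% of IgG sites within 50 nt, close to the shares measured. The median 5′UTR of the transcripts with a site was 284 nt with PDCD4 and 315.5 nt with IgG. The difference between the lists was 1.64 percentage points (-1.72 to 5.01) in MANE 5′UTRs and 1.42 (-1.42 to 4.25) without sites that also lie in a non-coding exon, both with intervals that include 0.

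A single position stood out from the others. In MANE transcripts, the nucleotide directly before the start codon, position -1, held 98 PDCD4 sites. The 49 positions from -50 to -2 held between 6 and 26 sites each, with a median of 12, so that position -1 stood 7.73-fold above their mean. In the IgG list the same position held 29 sites, where the 49 positions before it held between 0 and 9 with a median of 4, and it stood 6.86-fold above their mean. Downstream the counts were low again, with 11, 4 and 26 PDCD4 sites at the 3 bases of the start codon and 4, 0 and 2 IgG sites. Over all transcripts, 102 of the PDCD4 5′UTR sites (2.75%, 2.27 to 3.33) were of this kind, in 102 genes, and 31 of the IgG sites (2.04%, 1.44 to 2.88) in 31 genes. The lists had 2 of these genes in common, an overlap that the subtraction of IgG sites also lowered in advance. The sequences of CASKIN2, SLC16A3, S100A2 and SFN above show how the site, a T or C in these 4 genes, abuts the ATG.

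**Figure D2:**
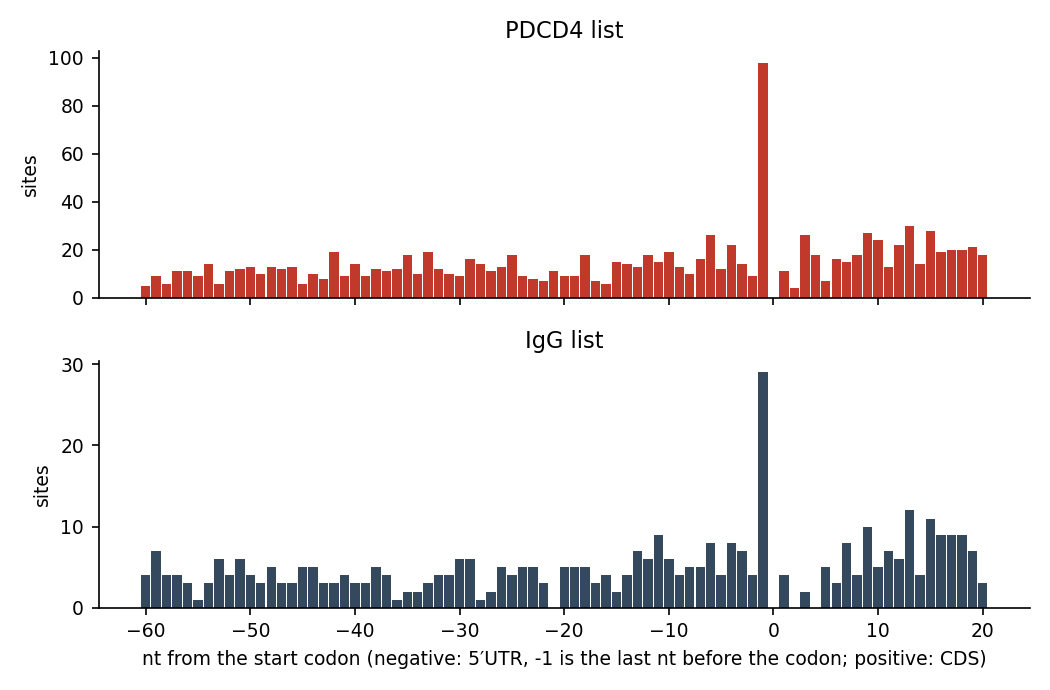
Number of sites at each nucleotide from 60 nt before to 20 nt after the start codon in MANE Select transcripts, for the PDCD4 list (top) and the IgG list (bottom, its own axis); position -1 is the last nucleotide of the 5′UTR. Position -1 holds 98 and 29 sites, above every other position shown in its list.

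Sites before the start codon also had higher scores in the PDCD4 list. Their mean was 3.05 cDNAs (SD 1.26, 102 sites) against 2.65 (SD 1.01) at other 5′UTR sites. In the IgG list the means were 2.81 (SD 0.79, 31 sites) and 2.67 (SD 0.94). Of the 49 PDCD4 5′UTR sites with a score above 5, 6 lay at position -1, or 12.2% (5.73 to 24.2). These were in CASKIN2, a scaffold protein, SLC16A3, the lactate exporter MCT4, S100A2, a calcium-binding protein of basal epithelium, CD46, a complement regulator, KMT5B, a histone methyltransferase, and PLEC, the cytoskeletal linker plectin. None of the 20 IgG sites with a score above 5 lay there, and a count of 0 among 20 allows a share of up to 15%, so no difference can be read at this depth.

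The start codon was not the only AUG that followed a site. Among MANE 5′UTR positions, those directly before an upstream ATG held 6.04 PDCD4 sites per 1000 positions (4.67 to 7.80) and 1.67 IgG sites (1.03 to 2.70). Positions directly before the start codon held 11.0 (9.07 to 13.4) and 3.27 (2.28 to 4.69), and all other positions 1.30 and 0.458. The start codon thus exceeded upstream ATGs by 1.83-fold with PDCD4 (1.32 to 2.53) and 1.96-fold with IgG (1.06 to 3.61). Upstream ATGs exceeded other positions by 4.64-fold (3.58 to 6.02) and 3.63-fold (2.22 to 5.96). The order of the 3 classes was the same in both lists. ATG was 1 of several trinucleotides that followed sites often. It came directly after 6.06% of PDCD4 sites and 5.01% of IgG sites in MANE 5′UTRs, against 0.984% of positions. ACG followed 4.97% and 4.45% of sites against 0.738% of positions, and TTT followed 6.13% and 6.46% against 1.33%. The part of the sequence around the site in the counts at the start codon was not tested beyond these values.

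**Figure D3:**
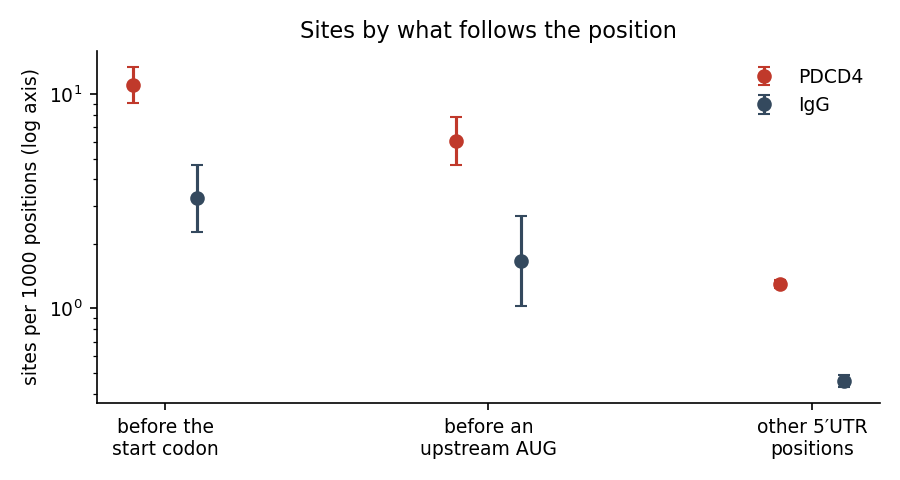
Sites per 1000 positions of MANE 5′UTRs (log axis) for positions directly before the start codon, directly before an upstream AUG and all others, with 95% Wilson intervals. Both lists fall from left to right, PDCD4 from 11.0 to 1.30 and IgG from 3.27 to 0.458.

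Upstream open reading frames held a smaller share of sites than of pooled 5′UTR positions. They took 14.9% of PDCD4 sites in MANE 5′UTRs (13.5 to 16.3) and 16.4% of IgG sites (14.1 to 18.9), where they hold 21.2% of the positions. That share of positions weights long 5′UTRs by their length. Sites were not set against their own 5′UTR here, so a depletion within 5′UTRs was not tested. At the other end, 21.8% of PDCD4 sites and 20.8% of IgG sites lay within 50 nt of the annotated transcript start, a difference of 1.04 percentage points (-1.39 to 3.48). An even spread over each site's own 5′UTR would have given 23.4% and 21.8%. The 3′ ends of exons held few sites in both lists. Of sites outside the last exon of their transcript, the last 60 nt of an exon held 5.14% with PDCD4 and 7.18% with IgG, while the next 60 nt held 23.9% and 22.4%. The positions of the same exons were spread nearly evenly over those 2 windows, with 11.2% and 12.2% for PDCD4. Without sites in the last 60 nt of an exon, the difference between the lists near the start codon was 3.84 percentage points. There 21.4% of PDCD4 sites (20.1 to 22.8) lay within 50 nt of it, where an even spread over each own 5′UTR would have given 18.8%. With IgG these values were 17.6% (15.7 to 19.7) and 16.8%. Near the transcript start 22.2% of PDCD4 and 21.3% of IgG sites were left, where an even spread would have given 25.9% and 23.5%.

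Per length, MANE 5′UTRs held fewer sites than the CDS of the same 9653 transcripts. The density was 1.37 sites per kb in the 5′UTR and 1.70 in the CDS with PDCD4, and 0.478 and 0.542 with IgG. The GC content of the 5′UTR ordered these densities differently in the lists. Over 4 classes of about equal size, from the lowest 5′UTR GC content to the highest, PDCD4 5′UTR density was 1.30, 1.47, 1.57 and 1.13 sites per kb, with the highest value in the third class. IgG density was 0.592, 0.535, 0.437 and 0.314 sites per kb and was lower at each step. In the CDS of those transcripts PDCD4 density was 1.35, 1.64, 2.04 and 1.78 sites per kb and IgG density 0.510, 0.519, 0.576 and 0.564. In both lists, then, 5′UTR sites were sparsest where the 5′UTR was richest in GC.

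Taken over all scores, the sites lay in the less GC-rich parts of their 5′UTRs. The 30 nt around a site had a GC content of 58.1% ± 16.6 (SD, 3710 sites) with PDCD4 and 55.1% ± 16.9 (SD, 1522 sites) with IgG, against a mean of 65.4% around all MANE 5′UTR positions. These means cover all sites, while the reference is MANE 5′UTRs alone. Around the sites in MANE 5′UTRs the means were 60.6% with PDCD4 and 58.4% with IgG, nearer to the reference. PDCD4 windows were higher by 3.07 percentage points (2.06 to 4.07) over all sites, and by 2.16 (0.91 to 3.40) in MANE 5′UTRs. The whole 5′UTRs of the same transcripts differed in the same direction, with 62.8% and 59.5% for a mean over sites. The mean difference between the window and its own 5′UTR was -4.70 points with PDCD4 and -4.48 with IgG, and the window was the poorer for 63.5% and 63.3% of the sites. Single sites varied widely, and the windows printed above had 46.7% GC in HSPA8 and 76.7% in ANKRD18A. Sites outside MANE 5′UTRs were poorer in GC, at 52.6% and 50.2%. Around sites with a score above 5 the GC content was 64.1% ± 13.1 (SD, 49 sites) with PDCD4 and 61.3% ± 19.6 (SD, 20 sites) with IgG, nearer to that of all positions than around sites with lower scores, at 58.0% and 54.97%.

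**Figure D4:**
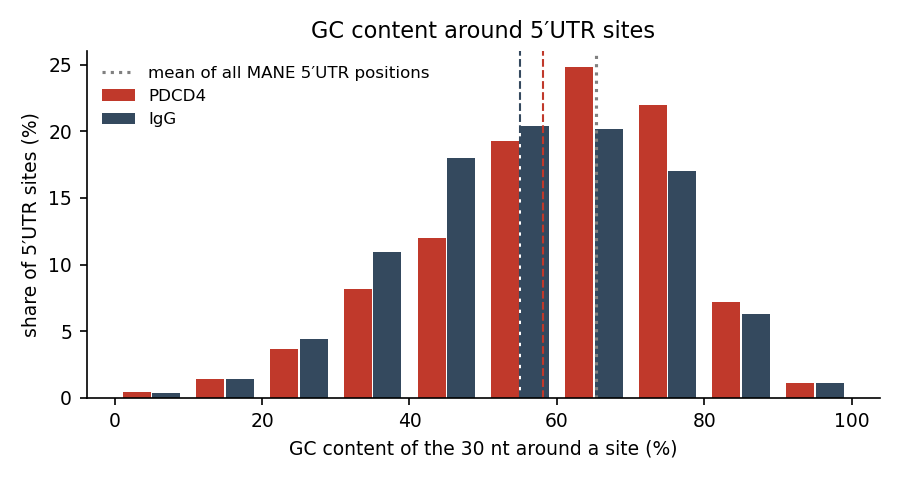
GC content of the 30 nt around 5′UTR sites (x axis, percent, in steps of 10) against the share of 5′UTR sites of each list (y axis, percent). Dashed lines mark the list means of 58.1% and 55.1% and the dotted line the mean of 65.4% around all MANE 5′UTR positions, to the right of both.

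Of 4 words searched in these windows on the transcribed strand, taken over all scores, the T-rich one was more frequent than in 5′UTRs at large and the G-rich ones less frequent. The run TTTT occurred in 18.5% of PDCD4 windows (17.3 to 19.8) and 22.8% of IgG windows (20.8 to 24.97), against 7.32% of all 30-nt windows of MANE 5′UTRs. The EIF4G2 window above, from the IgG list, holds such a run. GGCGGC, which overlaps GGG only where further G bases precede it and belongs to repeats reported for eIF4A-dependent 5′UTRs, occurred in 4.10% of PDCD4 windows and 3.02% of IgG windows against 7.58%. Among sites with a score above 5 it occurred in 4 of 49 PDCD4 windows (8.16%, 3.22 to 19.2) and 4 of 20 IgG windows (interval 8.07% to 41.6%), not below that share. GGG occurred in 42.5% and 38.4% against 48.3%, and ATG in 21.8% and 22.7% against 18.0%. At the site itself the base was U in 38.3% of PDCD4 sites and 39.4% of IgG sites, where 17.4% of 5′UTR positions are U. The next base was U or A in most sites, with 42.2% and 33.1% for PDCD4 and 44.9% and 32.1% for IgG, and it was G in only 6.23% and 5.65% against 33.8% of positions. These base shares also cover all sites, while the positions are those of MANE 5′UTRs. UV crosslinking is known to favour uridines.

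The sites fell in 2135 genes with PDCD4 and 1072 with IgG, and 491 genes were in both sets, which is 23.0% of the first and 45.8% of the second. A single site was found in 66.2% of the PDCD4 genes and 77.1% of the IgG genes, and the 10 largest genes held 4.57% and 6.73% of the 5′UTR cDNAs. To compare genes, the scores of their 5′UTR sites were summed, set per 10000 cDNAs of the whole list after adding 1 cDNA, and called at a 2-fold ratio. Sums are not divided by length, so they compare lists within a gene and not genes with each other. Of 284 genes with at least 10 cDNAs over both lists, 118 were at least 2-fold higher with PDCD4 (41.5%) and 44 with IgG (15.5%). Over all sites of 9535 genes, the same rule called 18.8% and 18.0%. The median log2 ratio was 0.60 for 5′UTR sums, -0.08 for the sums over all sites, and 1.17 for the CDS sums of the 207 genes of the first set that had 10 CDS cDNAs, of which 55.6% were higher with PDCD4 and 4.35% with IgG. Over all sites of the 284 genes, 25.7% were higher with PDCD4 and 7.04% with IgG. With sums set per 10000 cDNAs of 5′UTR sites, the counts were 88 and 74 in place of 118 and 44. With so few cDNAs a gene, a 2-fold ratio can arise from counting error. A further limit is that 78 of the 284 genes had no site in 1 list. These passed the minimum of 10 cDNAs through the other list alone, which fixed their 2-fold call in advance.

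**Figure D5:**
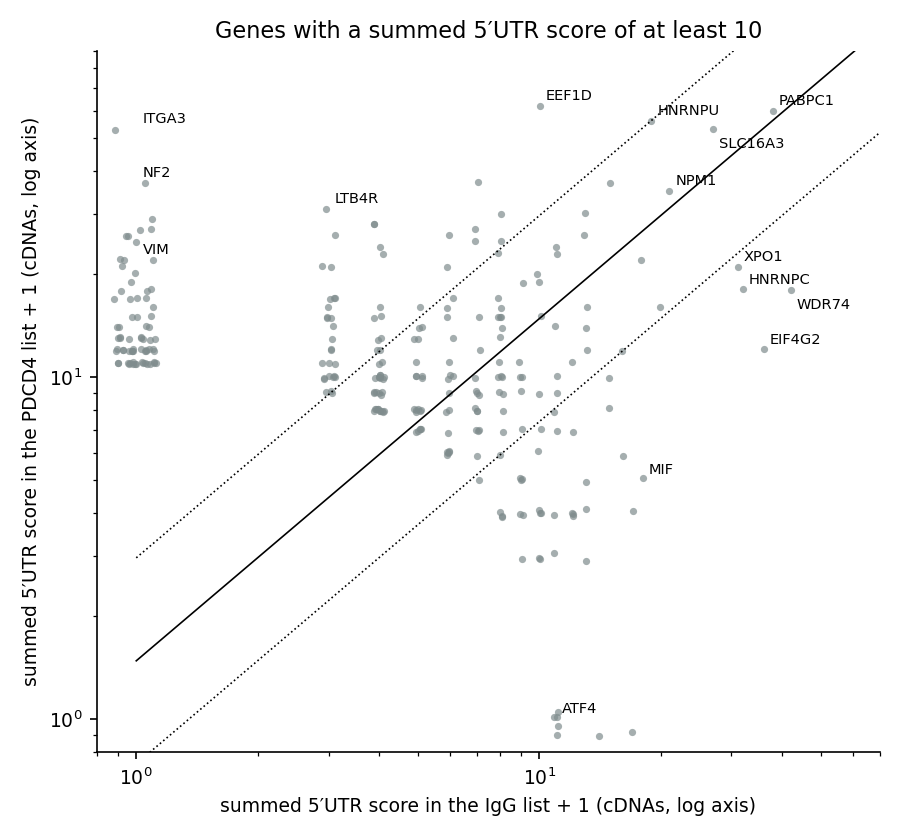
Summed 5′UTR score per gene in the IgG list (x axis) and the PDCD4 list (y axis), each plus 1 cDNA on log axes, for the 284 genes with a sum of at least 10 over both lists; points are shifted slightly so that ties can be seen. The solid line marks equal shares of the lists and the dotted lines a 2-fold ratio; 118 genes lie on or above the upper line and 44 on or below the lower.

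Of the 10 genes with the largest 5′UTR sums with PDCD4, 5 reached a 2-fold ratio. EEF1D, a guanine nucleotide exchange subunit of elongation factor 1, had 61 cDNAs at 19 sites with PDCD4 and 9 cDNAs at 4 sites with IgG, a log2 ratio of 2.06 (1.17 to 3.39). Only 1 of its 19 PDCD4 sites lay in the MANE 5′UTR. ITGA3, the integrin chain that binds laminin, had 52 cDNAs at 14 sites with PDCD4 and no 5′UTR site with IgG. Over listed sites it was at least 11.7-fold higher with PDCD4, taking 3 cDNAs as the most that an IgG count of 0 allows. This bound takes the PDCD4 count as exact and leaves out the counting error of the higher list. The lower limit of the exact interval, here a log2 ratio of 3.198, is therefore given beside it. The lists hold only sites called as peaks, so a count of 0 means no listed site. Here and in the genes below, neither limit covers cDNAs at positions that were not called. All ITGA3 sites were in the MANE 5′UTR, between 30 and 301 nt before the start codon. NF2, which encodes the tumour suppressor merlin, had 36 cDNAs at 12 sites and none with IgG (at least 8.10-fold, lower limit of the log2 ratio 2.64). SHC1, an adaptor of receptor tyrosine kinases, had 36 cDNAs against 6 (log2 ratio 1.83, 0.76 to 3.56), and LTB4R, a leukotriene receptor, had 30 against 2 (2.80, 1.36 to 6.45), with no LTB4R site in the MANE 5′UTR.

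The other 5 of the 10 largest PDCD4 sums did not reach a 2-fold ratio. PABPC1, the cytoplasmic poly(A)-binding protein, had 59 cDNAs at 23 sites with PDCD4 and 37 at 14 sites with IgG, a log2 ratio of 0.09 (-0.51 to 0.74), and all 37 sites were in its MANE 5′UTR. HNRNPU, a nuclear matrix RNA-binding protein, had 55 against 18 (0.99, 0.25 to 1.90). SLC16A3 had 52 against 26 (0.41, -0.27 to 1.17), with a single PDCD4 site, that before the start codon, in the MANE 5′UTR. AKT1, the survival kinase, had 36 against 14 (0.73, -0.13 to 1.80), none in the MANE 5′UTR. NPM1, a nucleolar chaperone, had 34 against 20 (0.17, -0.64 to 1.07). Each of these 5 genes had at least 14 cDNAs in the 5′UTR with IgG as well.

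Among genes with at least 20 cDNAs, the largest ratios after ITGA3 and NF2 were in PAPOLA, SH2B1 and SPTBN1, none of which had a 5′UTR site with IgG. PAPOLA, the nuclear poly(A) polymerase, had 28 cDNAs (at least 6.30-fold, lower limit of the log2 ratio 2.26). SH2B1, an adaptor of insulin and growth hormone signalling, had 26 (at least 5.85-fold, lower limit 2.15), where its CDS had 3 cDNAs in each list. SPTBN1, the beta chain of non-erythroid spectrin, also had 26, all outside the MANE 5′UTR.

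The IgG list had its own leading genes. EIF4G2, the initiation factor DAP5 that acts without the cap-binding protein, had 35 cDNAs at 11 sites with IgG and 11 cDNAs at 4 sites with PDCD4, a log2 ratio of -2.15 (-3.36 to -1.23). The ratio was -0.11, short of 2-fold, when sites within 20 nt were merged to the highest. All 15 sites were in the MANE 5′UTR. In the CDS of this gene the order was the other way, with 100 cDNAs with PDCD4 and 42 with IgG and a log2 ratio of 0.66. XPO1, the nuclear export receptor, had 20 cDNAs with PDCD4 and 30 with IgG in the 5′UTR (-1.13, -2.05 to -0.29) and 35 against 5 in the CDS (2.02). Its 5′UTR ratio turned to 2.43 when only sites with a score above 5 were summed, and was -0.93 with sites merged and -0.65 without sites in non-coding exons. HNRNPC, a pre-mRNA binding protein, had 17 against 31 (-1.40, -2.38 to -0.54), and MIF, a cytokine, 4 against 17 (-2.42, -4.69 to -1.04). STAT6, a transcription factor of interleukin signalling, had 5 against 15 (-1.98, -3.97 to -0.62), and ANKRD18A 7 against 14 (-1.47, -3.12 to -0.16).

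The largest IgG sum of all, 41 cDNAs at 12 sites in WDR74, lay in a small RNA gene. Every WDR74 5′UTR site of both lists was inside RNU2-2P, a U2 snRNA gene on the same strand at chr11:62841619-62841809, and PDCD4 had 17 cDNAs at 9 sites there (log2 ratio -1.79, -2.75 to -0.99, and -0.95 with sites counted). Reads of the snRNA and of a WDR74 isoform cannot be told apart. In all, 33 PDCD4 sites and 16 IgG sites lay inside an annotated small RNA gene. In RPL27A 4 PDCD4 sites with 13 cDNAs lay in SNORA3A, and in HSPA8 7 PDCD4 sites lay in SNORD14C and SNORD14D. The HSPA8 site with 10 cDNAs stood at the base directly before SNORD14D, outside that gene. No PDCD4 site of HSPA8 lay in the MANE 5′UTR. Without the sites inside small RNA genes the counts of genes called were 116 with PDCD4 and 43 with IgG.

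Genes of adhesion and the cytoskeleton were the list with the clearest direction. It has 43 genes and was drawn up with earlier results of these lists in view, so it is no independent evidence of a direction. 5′UTR sites were found in 27 of the genes, with 282 cDNAs with PDCD4 and 48 with IgG. Of 13 genes with at least 10 cDNAs, 10 were higher with PDCD4 and none with IgG, beside 41.5% and 15.5% of all genes tested. Their median log2 ratio was 2.89, or 1.34 with the 7 genes that had no site in 1 list set at their bound, beside 0.60 for all genes tested. Those 7 genes passed the minimum of 10 cDNAs through the PDCD4 list alone. Their calls were thus fixed in advance and are no evidence of a direction. VIM, the intermediate filament vimentin, and MYH9, a non-muscle myosin heavy chain, each had 21 cDNAs with PDCD4 and no site with IgG (at least 4.72-fold, lower limit of the log2 ratio 1.81). ACTG1, cytoplasmic gamma-actin, had 13 and none (at least 2.92-fold, lower limit 1.04), and FLNA, the actin crosslinker filamin A, had 10 and none (at least 2.25-fold), where the lower limit of 0.60 lies under a 2-fold ratio. PLEC had 22 cDNAs against 3 (log2 ratio 1.96, 0.57 to 4.69). ACTB, with 8 against 3, and ACTN1, with 18 against 8, were among those that did not reach 2-fold. CTNNB1, the adhesion and signalling protein beta-catenin, had 12 against 3 (1.13), which became -0.25 without sites that also lie in a non-coding exon. Over all their sites the 43 genes had 18040 cDNAs with PDCD4 and 4867 with IgG, of which PLEC alone held 4278 and 193. In the CDS, VIM had 445 against 9, MYH9 328 against 47 and ITGA3 135 against 24. The CDS did not follow the 5′UTR in every gene, with 15 against 12 in KRT17 (log2 ratio -0.27) and 20 against 16 in CTNNB1 (-0.26).

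Terminal oligopyrimidine mRNAs, which encode ribosomal proteins and other parts of the translation apparatus, were a larger list. Of 104 genes 38 had a 5′UTR site, with 342 cDNAs with PDCD4 and 132 with IgG, and of 10 genes tested 3 were higher with PDCD4, 2 with IgG and 5 neither, beside 41.5% and 15.5% of all genes tested. RPLP1, a stalk protein of the large subunit, had 27 against 3 (log2 ratio 2.24, 0.90 to 4.97), which became 0.85 with sites counted in place of cDNAs. RPL17 had 15 against 4 (1.11, -0.31 to 3.39), which became 0.92 with sites within 20 nt merged, 0.58 after adding 5 cDNAs in place of 1 and 0.40 on the scale of 5′UTR cDNAs alone. None of the RPL17 sites lay in the MANE 5′UTR, and its CDS had no cDNA in either list. RPS20 had 3 against 12 (-2.27, -5.03 to -0.68, and -0.98 with sites counted) and RPL38 3 against 8 (-1.74, -4.53 to 0.08). Ribosomal protein genes have many processed pseudogenes, so these values are uncertain where reads fit several copies.

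Of 18 genes of the eIF4F complex and its partners, 9 had a 5′UTR site, with 85 cDNAs in each list. As a share of the whole list this was lower with PDCD4, with a log2 ratio of -0.57 (-1.02 to -0.12). Most of these cDNAs were in PABPC1 and EIF4G2, the only 2 genes that could be tested. PABPC1 had 59 against 37 and was not called. EIF4G2, with 11 against 35, was higher with IgG, but its log2 ratio was -0.11 with sites within 20 nt merged. The ratio of the list thus depends on EIF4G2 and is no result about the group as a whole. EIF4A1, the major helicase of the family that PDCD4 binds, had 0 cDNAs with PDCD4 and 3 with IgG. EIF4G1 and EIF4E had the same counts, and EIF4A3, the nuclear helicase of the exon junction complex, had 6 and 0. The PDCD4 mRNA itself had no 5′UTR site in either list.

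Other lists held mRNAs for which control by PDCD4 or by a structured 5′UTR has been described. Among reported translational targets, BCL2L1 had 4 cDNAs with PDCD4 and 2 with IgG, while MAPKAP1, XIAP, MYB and MYBL1 had no 5′UTR site. Of 18 growth and survival genes, 12 had sites, with 74 cDNAs with PDCD4 and 15 with IgG. RUNX1 had 20 against 5 (log2 ratio 1.24, -0.03 to 3.202, but 0.75 after adding 5 cDNAs and 0.53 on the scale of 5′UTR cDNAs alone) and TGFB1 16 against 5 (0.93, -0.40 to 2.91), and these were the 2 genes tested. MYC had 4 and 0, CCND3 4 and 0, and VEGFA 0 and 2. Of 12 immediate early and AP-1 genes, 4 had sites with 18 and 5 cDNAs, too few to test any. Genes known for upstream open reading frames had 13 cDNAs with PDCD4 and 22 with IgG in 4 of 12 genes. ATF4, the stress-response factor whose translation depends on such frames, had no listed 5′UTR site with PDCD4 and 10 cDNAs with IgG. Over listed sites this was at least 4.94-fold higher with IgG (upper limit of the log2 ratio -1.73). The whole gene had no listed PDCD4 site against 24 cDNAs with IgG. Sites seen with IgG had been subtracted from the PDCD4 samples, and this step cannot be told apart from the antibody here.

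The markers of the labelled cells were present. Among 8 genes of basal breast epithelium, KRT5 had 14 5′UTR cDNAs with PDCD4 and 3 with IgG, KRT17 had 10 and 0, and LAMB3 had 0 and 3. Over all sites these 8 genes had 1442 and 490 cDNAs. The 7 markers of other cell types, from leukocytes to hepatocytes, had no cDNA in either list.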

How the data were processed

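iCLIP was performed on MCF10A cells with a PDCD4 antibody (2 samples) and with IgG (2 samples). Per the study's methods, the authors mapped reads and called sites with iCount on the genome of Ensembl release 88 (GRCh38), subtracted IgG sites from the PDCD4 samples before peak calling, and merged the samples of each kind. The deposited lists give raw cDNA counts per 1-nt site, with 409308 cDNAs for PDCD4 and 276139 for IgG. They start at a score of 1, so the filter of the methods on scores above 5 is not in them. Aligner settings and versions are not given in the sources used here. The members, gene lists and tests were chosen with earlier results of these data known. Positions were placed on GENCODE v44, also GRCh38: all 270283 fell within chromosomes, and the gene named in the list spanned the site for 99.8% and 99.5% of 5′UTR sites. Each site took its MANE Select transcript, else the Ensembl canonical one, else the one with the nearest start codon. Shares carry Wilson intervals, and ratios of counts carry normal intervals on the log scale or, for genes, exact binomial ones from the sums without the added cDNA. Genes are named here if they had the 10 largest PDCD4 or 5 largest IgG sums, the 5 largest or smallest ratios at 20 cDNAs or more, a site among the 5 highest of a list, or 10 cDNAs within a gene list; CASKIN2, S100A2, CD46, KMT5B, ID1, SFN, THBS1, C3 and ENO1, and list members with fewer cDNAs, were named after their values were seen. Some genes within these rules are not reported here. Distance and call scripts were tested on simulated data. Python 3.11.15, pandas 2.3.3 and scipy 1.17.1 were used.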

Additional observations from a re-analysis of the deposited data

How the results depend on the processing

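No paired analysis was possible because the samples of each immunoprecipitation reach the reader as 1 pooled list, and for the same reason no sample could be left out. Of 100 alternative values of the summary results, 78 lay within the interval of the main value or within 1.5 times a count. With scores above 5, the log2 ratio of the 5′UTR shares reversed to -0.32, the 5′UTR to CDS ratio moved from -0.33 to -1.61, the start-codon difference from 3.50 to 9.49 points (-10.7 to 29.6), the difference in U at the site from -1.05 to 6.73 points (-18.0 to 31.4), and the log2 ratio of position -1 to the 49 positions before it in the PDCD4 list from 2.82 to 5.61, while IgG had no such site at -1. With MANE 5′UTRs alone the share ratio moved from 0.77 to 1.01 and the CDS ratio to -0.10, and without sites in non-coding exons the share ratio moved to 0.86. Merging sites within 20 nt moved the CDS ratio to -0.23 and the score difference from -0.01 to 0.0886 cDNAs. A 100-nt window moved the start-codon difference to 6.001 points. Counts of genes higher with PDCD4 and with IgG, 118 and 44 of 284, became 4 and 1 of 6 with scores above 5, 61 and 23 of 154 without sites in non-coding exons, 15 and 3 of 33 with sites counted, 28 and 8 of 67 at a minimum of 20, and 1689 and 663 of 2716 with no minimum. Setting sums per 10000 cDNAs of 5′UTR sites gave 74 genes higher with IgG. For named genes 380 of 407 values were within their interval and 2 reversed, XPO1 to 2.43 with scores above 5 and CTNNB1 to -0.25 without non-coding exons. The causes were not tested. Depth limits all gene values, since 284 of 2716 genes reached 10 cDNAs. The alternatives for position -1, small RNA genes and exon ends were chosen after seeing the data.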
